A study of Homo sapiens with 4 samples.

Results

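The proteasome is the large protease that degrades proteins tagged with ubiquitin. The genes described here are its subunits, its regulators and the chaperones that assemble it. They were taken by name, as every probe whose gene name begins with PSMA, PSMB, PSMC, PSMD, PSME, PSMF or PSMG and a number, without the immune subunits PSMB8, PSMB9 and PSMB10. The rule gave 74 of 47229 probes and 46 gene names, of which 45 were proteasome genes. The remaining name, PSMC3IP, belongs to a protein of meiotic recombination and is described on its own.

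The samples came from 2 established human cell lines, H4 and ES2, with 4 arrays in all. The groups were H4 with GANT61, H4 with the solvent DMSO, ES2 with GANT61 and ES2 with DMSO, each with 1 array. GANT61, a small molecule that inhibits GLI1 and GLI2, the factors through which Hedgehog signals reach genes, was given at 20 µM for 48 h. Expression was read on Illumina HumanHT-12 V4 BeadChips, and values are given as background-corrected, quantile-normalized log2 intensity. The labels give both lines the same origin, an ovarian adenocarcinoma with epithelial morphology, although H4 is commonly described as a neuroglioma line. None of 4 Müllerian markers and none of 5 blood cell markers was detected on any array, and of 7 epithelial markers 2 were detected on both H4 arrays and 3 on both ES2 arrays. Of 5 glial markers, 2 were detected on both H4 arrays (OLIG2 and SLC1A3) and 1 on both ES2 arrays, while GFAP, S100B and AQP4 were detected on no array. The epithelial markers detected on both arrays of a line were KRT18 and MUC1 in H4, and KRT7, KRT8 and KRT18 in ES2. EPCAM, CDH1 and KRT19 were detected on no array. Of 3 mesenchymal markers, VIM and CDH2 were detected on both arrays of both lines, and FN1 on 1 ES2 array.

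In the cell, the proteasome has a barrel-shaped 20S core made of rings of alpha and beta subunits. The alpha rings form the gate, and the beta rings carry the protein-cutting sites. A 19S cap binds the ends of the barrel, where it recognises ubiquitin, unfolds the substrate with a ring of ATPases and feeds it into the core. Other regulators can take the place of the cap. PA28, made of PSME1 and PSME2, is the one best known from interferon-gamma responses, in which PSMB8, PSMB9 and PSMB10 also replace the standard cutting subunits. The NRF1 factor (NFE2L1) is known to raise proteasome genes together when proteasome activity is short, through antioxidant response elements in their promoters.

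A promoter sequence is shown for the gene with the highest and the gene with the lowest ratio of GANT61 over DMSO in H4, since these mark the ends of the response described next. Both are RefSeq windows on GRCh38.p14 that end shortly past the gene start, at chr17:39980557-39980856 on the plus strand for PSMD3 and chr14:24146561-24146860 on the minus strand for PSME2. Capitals mark matches, on either strand, to the antioxidant response element core TGACNNNGC, the NF-Y box CCAAT or the interferon-stimulated response element core GAAANNGAA, and no marked matches overlap. The ETS motif CCGGAAGT was also searched and had no match in either window.
PSMD3: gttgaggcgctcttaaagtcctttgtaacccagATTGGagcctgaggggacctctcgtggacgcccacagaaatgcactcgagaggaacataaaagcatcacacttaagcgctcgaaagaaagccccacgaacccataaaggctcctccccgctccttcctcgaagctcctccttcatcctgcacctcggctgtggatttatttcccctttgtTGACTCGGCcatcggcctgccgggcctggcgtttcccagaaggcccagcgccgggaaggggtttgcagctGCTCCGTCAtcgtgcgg
PSME2: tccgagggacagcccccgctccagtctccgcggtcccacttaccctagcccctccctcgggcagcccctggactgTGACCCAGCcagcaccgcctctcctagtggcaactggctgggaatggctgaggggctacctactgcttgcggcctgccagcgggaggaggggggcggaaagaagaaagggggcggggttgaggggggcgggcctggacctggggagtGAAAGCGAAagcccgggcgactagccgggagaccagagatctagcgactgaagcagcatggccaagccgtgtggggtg

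Promoter windows were found for 39 of the 45 proteasome genes. The antioxidant response element core was present in 14 of them (35.9%), against 13.3% of all 35116 windows and 13.8% of the 22199 windows of protein-coding genes. The ETS motif stood in 10 (25.6%), against 4.14% of all windows and 5.34% of coding ones, and the NF-Y box in 19 (48.7%), against 34.6% of all windows. The interferon-stimulated element core was searched after the values of PSME2 had been seen, and in a form 1 base shorter than the one searched first, which stood in fewer windows. The shorter form was present in 6 of the 39 (15.4%), namely PSMA4, PSMB4, PSMC2, PSME1, PSME2 and PSMG4, and in PSMB8 and PSMB10 among the immune subunits, against 8.11% of all windows and 7.09% of coding ones. A proteasome gene counted when any of its windows matched, while the shares of all and of coding windows count single windows. A match describes the letters in the window and is not a measured binding site.

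Most proteasome genes were well detected. At a detection p under 0.01, 58 of the 74 probes were detected on both arrays of both lines, 12 on no array and 4 on some arrays. PSMA8, the alpha subunit of the testis, and PSMB11, the beta subunit of the thymus, were detected on no array. PSMA7, a standard alpha subunit, has 1 probe, which was detected on 1 ES2 array and on no H4 array, so its level in H4 is not measured. PSMD9 was detected on 1 of the H4 arrays. This left 42 proteasome genes measured in H4 and 43 in ES2, each represented by its brightest probe.

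In H4, more proteasome genes were lower than higher with GANT61, and most differed little. A log2 ratio of 0.322 in either direction was used as the limit for calling a gene higher or lower. It is above the SD of a single probe's ratio, 0.222 in H4 and 0.143 in ES2, taken from the 2 brightest probes of each gene. That SD compares probes on the same arrays and does not measure the spread between replicate arrays. With GANT61 in H4, 10 of 42 proteasome genes were lower and 3 were higher by this limit. Over all 11546 genes measured in H4, 27.5% were lower and 22.7% higher. The median log2 ratio was -0.05 for the proteasome genes and -0.05 for all genes, and 29 of the 42 lay within the limit, against 5747 of the 11546. The single proteasome gene past 2-fold was PSME2, which was lower, where 3.51% of all genes were lower and 4.07% higher by that much.

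In ES2 the ratios of proteasome genes were small and more often above 0 than below. With GANT61, 4 of 43 were past the limit as higher and 0 as lower, against 4.86% and 5.16% of all 12213 genes measured in ES2. The median log2 ratio was 0.06, against 0.00 over all genes, with 28 genes above 0 and 15 below, where 50.6% of all genes were above 0. With 1 array per line and treatment, none of these ratios has a replicate or a p-value, and in bulk RNA fewer cells of a type and less RNA per cell cannot be told apart. Where a member gene had a second probe that both arrays detected, it had the same sign as the first for 9 of 13 genes in H4 and for 5 of 14 in ES2. The other genes had no such probe.

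**Figure D1:**
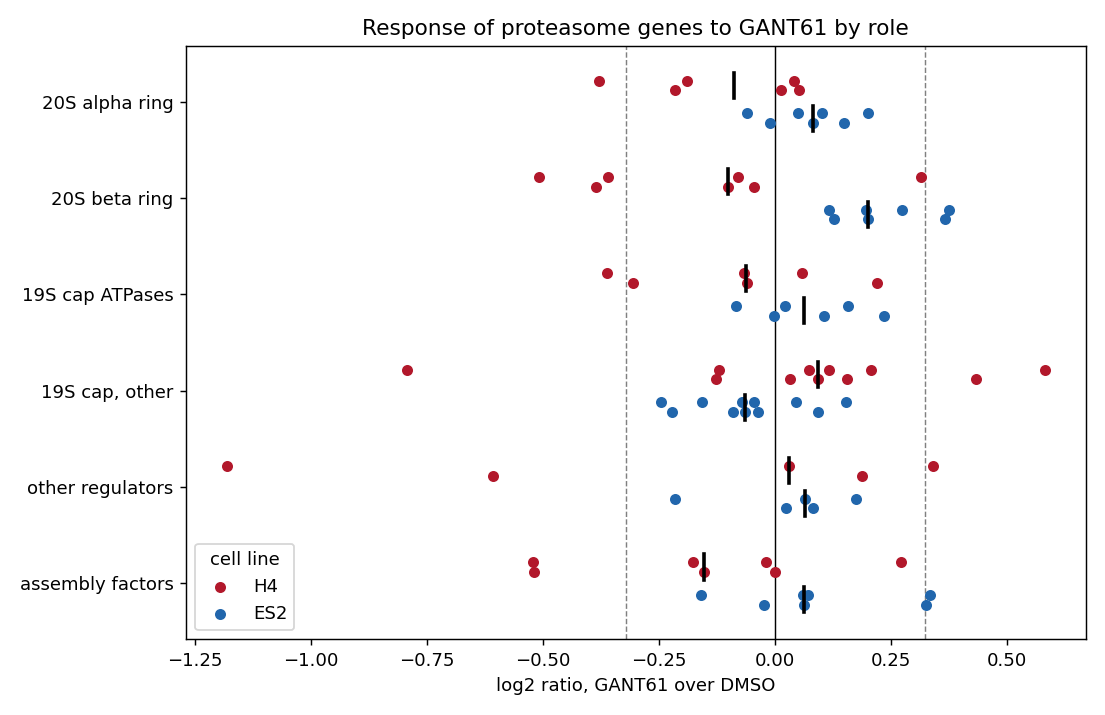
Log2 ratio of GANT61 over DMSO (horizontal axis) for each measured proteasome gene by role, in H4 (red) and ES2 (blue); black bars are group medians and dashed lines mark the limit of 0.322. The beta ring lies above 0 in ES2 for 7 of 7 genes and below 0 in H4 for 6 of 7, where 50.6% and 54.5% of all genes do. PSME2 and PSMD7 are the 2 lowest points in H4.

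The beta ring, which holds the cutting sites, had medians of opposite sign in the lines. In H4, 6 of its 7 measured genes were below 0 and 3 were lower by the limit, with a median of -0.10. Of all genes in H4, 54.5% were below 0 and 27.5% lower by the limit. In ES2 all 7 were above 0 and 2 were higher by the limit, with a median of 0.20. Of all genes in ES2, 50.6% were above 0 and 4.86% higher by the limit. The ratios of PSMB3, PSMB5 and PSMB6 in H4, and of PSMB3 and PSMB5 in ES2, were smaller than the SD of a single probe. PSMB4, a structural beta subunit, had a log2 intensity of 11.11 with GANT61 against 11.61 with DMSO in H4, and 11.68 with GANT61 against 11.31 with DMSO in ES2. It was thus 1.42-fold lower with GANT61 in H4, whereas in ES2 it was 1.30-fold higher, past the limit in both lines. PSMB1 (log2 ratio -0.36) and PSMB2 (-0.38), also structural subunits, were the other 2 lower genes in H4, and their ES2 ratios were 0.20 and 0.27.

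Of the 3 standard cutting subunits, PSMB7 alone was above 0 in both lines. PSMB7, which carries the trypsin-like site, measured 12.26 with GANT61 against 11.95 with DMSO in H4, and 11.90 with GANT61 against 11.53 with DMSO in ES2. It was higher on both GANT61 arrays, by 0.315 in H4, just inside the limit, and by 0.366 in ES2, past it. PSMB5, the chymotrypsin-like subunit, had ratios of -0.05 in H4 and 0.12 in ES2, and PSMB6, the caspase-like subunit, had -0.08 and 0.20. Each of PSMB1 to PSMB7 has 1 probe, so no second probe could check the beta ring.

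The alpha ring had 6 genes measured in H4, with 3 above 0 and 3 below and a median of -0.09. PSMA3 was lowest, at 10.11 with GANT61 against 10.49 with DMSO (1.30-fold lower), and was the only alpha gene past the limit there. PSMA5 was highest in H4, with a ratio of 0.05. In ES2 none of 7 alpha genes passed the limit, the median was 0.08, and PSMA3 had a ratio of 0.20. For PSMA3 itself, a second, dimmer probe gave -0.25 in H4, inside the limit, and -0.15 in ES2, opposite in sign to the probe used. Such a probe gave larger ratios for PSMA1 (-0.50 in H4, against -0.22 for the probe used) and PSMA4 (-0.43, against -0.19), and for PSMA4 in ES2 it gave 0.43, against -0.06. For PSMA6 it gave -0.20 in H4, against 0.01, and -0.02 in ES2, against 0.10. With the mean of detected probes, 2 alpha genes were above 0 in H4 and 4 below.

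The 19S cap split into its ATPases and its other subunits. Among the 6 ATPases, which unfold substrates, PSMC2 was lowest in H4, at 11.47 with GANT61 against 11.83 with DMSO (1.29-fold lower), while PSMC4 was highest, with a ratio of 0.22. PSMC1 lay just short of the limit (-0.31). The ATPase median was -0.06 in H4. In ES2 it was 0.06, and none of the 6 passed the limit.

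The other 11 cap subunits had medians of the reverse sign in each line. In H4, 8 of 11 were above 0, against 45.4% of all genes, with a median of 0.09. In ES2, 8 of 11 were below 0, against 49.2% of all genes, with a median of -0.07. Of the 11, 5 were above 0 in H4 and below 0 in ES2, against 2465 of all 10229 genes. The rest had the same sign in both lines, with 3 above 0 and 3 below. The H4 ratios above 0 were smaller than the SD of a single probe, except for PSMD3 and PSMD8. So were the ES2 ratios below 0, except for PSMD2, PSMD6 and PSMD12. A dimmer detected probe of PSMD6 had the opposite sign in both lines (-0.09 in H4, 0.004 in ES2). For PSMD12 it gave 0.01 in ES2, and for PSMD4 such probes gave -0.07 and 0.30 in H4. For PSMD13 it kept the sign. With the mean of detected probes, 7 were above 0 in H4 and 8 below 0 in ES2. PSMD3, a lid subunit, had a log2 intensity of 7.89 with GANT61 against 7.31 with DMSO in H4 (1.50-fold higher), and PSMD8, another lid subunit, had 10.32 against 9.88 (1.35-fold higher). Both were slightly below 0 in ES2, at -0.07 and -0.09. PSMD7, the lid subunit that pairs with the deubiquitinase PSMD14, measured 9.46 with GANT61 against 10.25 with DMSO in H4, which is 1.73-fold lower, and it was the only lower cap subunit of the 11 past the limit there. Its partner PSMD14 had a ratio of 0.03 in H4. The ubiquitin receptor PSMD4 had 0.07, and the scaffold PSMD2 had 0.15 in H4 and the lowest ES2 ratio of all proteasome genes, -0.25, inside the limit.

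**Figure D2:**
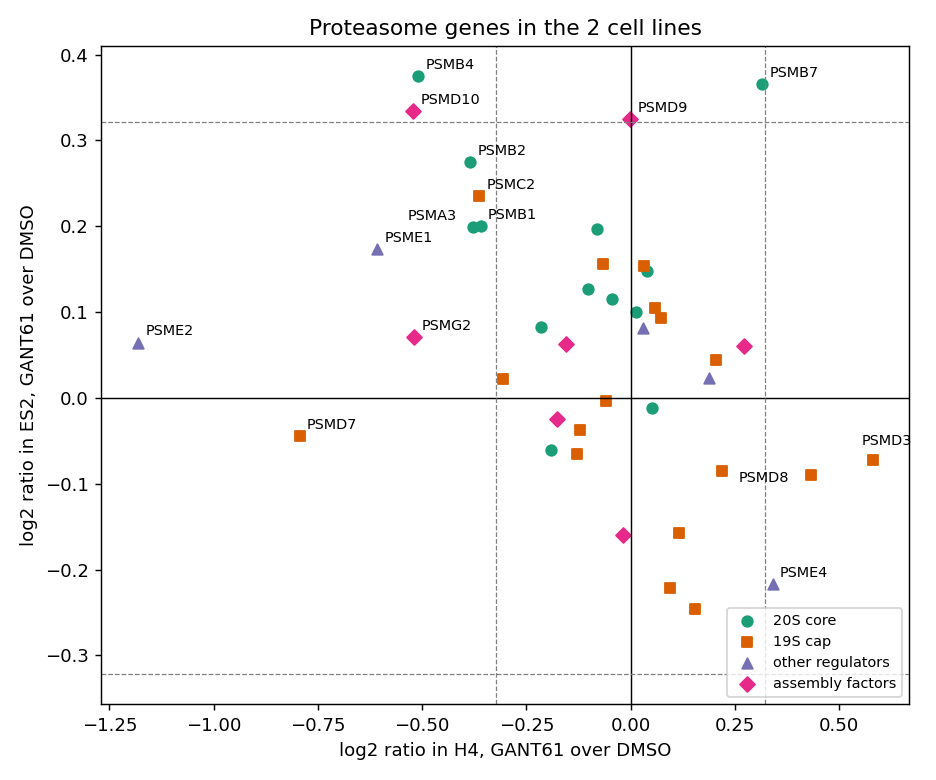
Log2 ratio of GANT61 over DMSO in H4 (horizontal axis) and in ES2 (vertical axis) for the 42 proteasome genes measured in both lines, by group; dashed lines mark the limit of 0.322, and genes past it in either line are named. PSMB4 and PSMD10 lie past it in opposite directions, lower in H4 and higher in ES2.

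Set side by side, the core had medians of -0.10 in H4 and 0.14 in ES2, and the whole cap 0.06 and -0.04. The assembly factors had -0.15 and 0.06 and the other regulators 0.03 and 0.06, against -0.05 and 0.00 for all genes. Each of these medians was smaller than the SD of a single probe in its line. Of 13 core genes measured in both lines, 8 were above 0 in ES2 and below 0 in H4, against 3 of 17 cap genes and 4 of 7 assembly factors. Over all 10229 genes measured in both lines, 2908 showed that pattern. The measured genes not described singly (PSMA2, PSMA6, PSMB3, PSMC3, PSMC5, PSMC6, PSMD1, PSMD5, PSMD6, PSMD11, PSMD12, PSMD13 and PSMG3) had ratios from -0.18 to 0.21 in H4 and from -0.22 to 0.16 in ES2, all within the limit. The core and assembly medians shared a sign within each line, and the cap median had the other sign in both, although over single probes the ES2 cap median was 0.01. No difference between the lines or the groups was tested.

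Of the 7 assembly factors, 6 were below 0 in H4, where 54.5% of all genes were, and 2 were lower by the limit, a share near that of all genes (27.5%). The 6 include PSMD9, which was detected on 1 array and had a ratio of -0.00055. PSMG2, a chaperone of the alpha ring, measured 9.75 with GANT61 against 10.27 with DMSO (1.43-fold lower), and PSMD10, also known as gankyrin, which helps build the ATPase ring, measured 10.25 against 10.77 (1.44-fold lower). PSMD10 was higher in ES2, at 11.22 with GANT61 against 10.89 with DMSO (1.26-fold higher). Its 3 probes had ratios of -0.52, -0.58 and -0.40 in H4, and 0.33, 0.38 and -0.07 in ES2, where the last was the dimmest probe. PSMD9, another chaperone of the ATPase ring, was just past the limit in ES2, at 6.99 with GANT61 against 6.67 with DMSO, a ratio of 0.324. PSMG4 was highest in H4, with 0.27. PSMG1, the partner of PSMG2, had -0.02 in H4 and -0.16 in ES2.

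The other regulators held the lowest proteasome gene of H4. PSME2, the PA28 beta subunit, had a log2 intensity of 10.63 with GANT61 against 11.82 with DMSO in H4, and 10.51 with GANT61 against 10.45 with DMSO in ES2. The H4 DMSO array stood apart from the other arrays, and with GANT61 PSME2 was 2.27-fold lower in H4, at the 2.11 percentile of all genes. In the deposited intensity, before any correction made here, PSME2 read 1401 with GANT61 against 3049 with DMSO in H4. PSME1, the PA28 alpha subunit, measured 11.73 with GANT61 against 12.34 with DMSO in H4 (1.52-fold lower) and 11.44 against 11.26 in ES2. PSME3, the nuclear relative that forms a ring of its own, had ratios of 0.19 in H4 and 0.02 in ES2. A second detected PSME3 probe had the opposite sign in both lines, at -0.06 in H4 and -0.25 in ES2. PSME4, the PA200 activator, was 1.27-fold higher in H4 (10.49 with GANT61 against 10.15 with DMSO) with a ratio of -0.22 in ES2, and the inhibitor PSMF1 had 0.03 and 0.08.

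PSMB8, PSMB9 and PSMB10, the immune cutting subunits outside the naming rule, were lower in H4 along with PA28. PSMB9, which takes the place of PSMB6, measured 7.40 with GANT61 against 9.13 with DMSO, PSMB10, which takes that of PSMB7, measured 9.79 against 11.10, and PSMB8, which takes that of PSMB5, measured 8.81 against 9.89. Their log2 ratios were -1.74, -1.31 and -1.09, against -0.08, 0.32 and -0.05 for the standard counterparts. In ES2 the immune subunits had ratios of 0.17, -0.08 and 0.17. Of the other PSMB8 probes, 2 had H4 ratios of -1.22 and -1.29 and the dimmest had -0.25. Blood cell markers were detected on no array in either line.

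**Figure D3:**
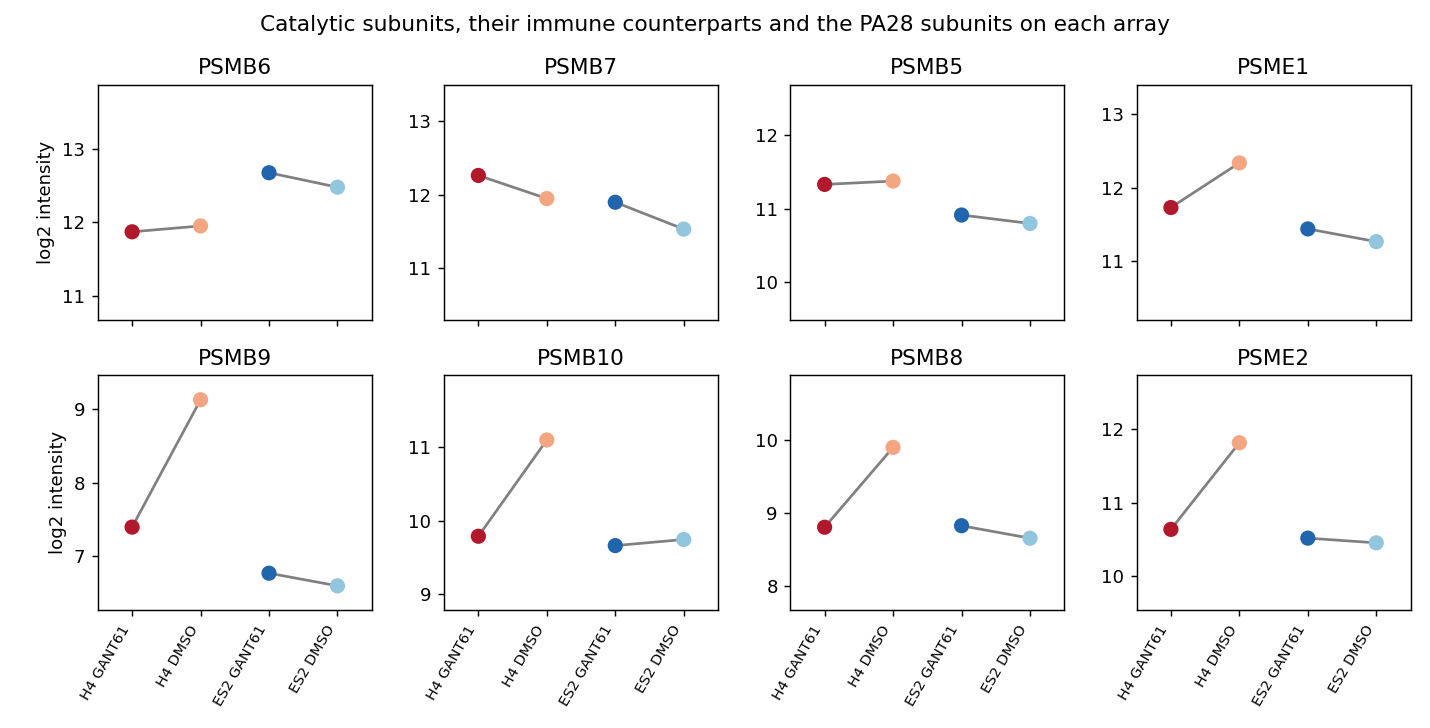
Log2 intensity on the 4 arrays for the standard cutting subunits PSMB6, PSMB7 and PSMB5 (top), their immune counterparts PSMB9, PSMB10 and PSMB8 (below them) and the PA28 subunits PSME1 and PSME2; each panel spans the same range of log2 units around its own middle. In the immune and PA28 panels the H4 DMSO array is the highest of the 4, at 9.13 for PSMB9 and 11.82 for PSME2.

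A response common to both lines was tested with limma, taking the line as a block and the 2 lines as replicates of the treatment. Of 10229 genes, 0.156% passed an adjusted p of 0.05 and 6.1% an unadjusted one. Of 42 proteasome genes 0 passed the adjusted p in limma, while 1 had an unadjusted p under 0.05. That gene was PSME2, with a shared log2 ratio of -0.56 ± 0.27 (moderated SE, 2 lines, limma adjusted p = 0.81), although its ratio was 0.06 in ES2. PSMB7 (0.34 ± 0.21) and PSMD7 (-0.42 ± 0.28) came next, with limma adjusted p-values of 1. Standard errors of the proteasome genes ran from 0.18 to 0.28, so a shared ratio at the limit of 0.322 lay within 2 standard errors. These standard errors rest mostly on a variance borrowed from all genes, with a median of 30.4 prior degrees of freedom against 1 residual. They do not measure a gene's own spread between the 2 lines.

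Genes that work beside the proteasome were described from 4 lists of 39 genes in all. In H4, 12 of the 37 measured were higher by the limit and 6 lower, with a median of 0.17, against 22.7% and 27.5% of all genes. One of the lower genes, the NF-Y subunit NFYB, was detected on 1 H4 array and had a bound of -0.29, within the limit. In ES2, 2 were higher and 3 lower, with a median of -0.05, against 4.86% and 5.16% of all genes. Among 13 subunits and partners, 4 were higher and 3 lower in H4. The ubiquitin ligase UBE3C was 1.74-fold higher, at 11.03 with GANT61 against 10.23 with DMSO, and the proteasome-bound deubiquitinase USP14 was past the limit in both lines (1.45-fold in H4, 1.32-fold in ES2). POMP, the chaperone that guides beta ring assembly, was 1.31-fold higher in H4, and the heat-inducible ZFAND2A was 1.40-fold higher. PAAF1, which binds the cap ATPases, was 1.57-fold lower in H4, the deubiquitinase UCHL5 1.34-fold lower and AKIRIN2, a factor of proteasome import into the nucleus, 1.29-fold lower. In ES2, TXNL1, a thioredoxin bound to the cap, was 1.28-fold lower. The cap subunits ADRM1 and SEM1 had H4 ratios of 0.21 and 0.13.

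Among the 10 factors that control proteasome genes, NFE2L1 itself stayed within the limit, at 9.03 with GANT61 against 8.86 with DMSO in H4 and 7.88 against 7.99 in ES2. NGLY1, the enzyme that activates NFE2L1 by removing sugar chains, was 1.53-fold higher in H4. The small MAF partner MAFF measured 8.82 with GANT61 against 6.39 with DMSO in H4, a 5.40-fold difference (log2 ratio 2.43, but 1.71 on the deposited scale), and had a ratio of -0.15 in ES2. MAFG, of the same family, was 1.40-fold higher in H4, whereas in ES2 it was 1.26-fold lower. NFE2L2, which encodes NRF2, was 1.80-fold lower in H4, and the NF-Y subunit NFYC 1.54-fold lower. The protease DDI2 was detected on no array.

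Of 10 genes of ubiquitin shuttles and the VCP segregase, 7 were above 0 in H4 and 4 were higher by the limit, with a median of 0.28. Of all genes, 45.4% were above 0 and 22.7% higher by the limit. NPLOC4 (1.51-fold) and NSFL1C (1.41-fold), cofactors of VCP, and the shuttle UBQLN1 (1.30-fold) were higher, as was UFD1, which was detected on 1 H4 array. The bound of UFD1 was 1.34-fold higher, but its log2 ratio on the deposited scale was 0.31, inside the limit. VCP itself had 0.17 in H4 and 0.25 in ES2. BAG6, which hands misplaced membrane proteins to the proteasome, was 1.66-fold lower in ES2, at 8.09 with GANT61 against 8.82 with DMSO. Of the ubiquitin genes, UBB was 1.52-fold higher in ES2 (14.08 against 13.47) with 0.22 in H4, and the activating enzyme UBA6 was 1.30-fold higher in H4. The ES2 log2 ratio of UBB ran from 0.37 to 0.61 over 7 alternatives of the processing, past the limit in each.

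The lines also differed before treatment, but that comparison depends on how the lines are put on 1 scale, since the authors normalized each line on its own. With quantile normalization over the 4 arrays, 18 of 42 proteasome genes were past the limit as higher in the H4 DMSO array than in the ES2 DMSO array and 7 as lower, against 30.5% and 29.9% of all genes. With median scaling the median of all genes itself lay at -0.62, and 4 proteasome genes were higher and 32 lower. Set against that median, 10 of the 42 were higher and 10 lower, where 33.2% and 33.6% of all genes were. Relative to the median of all genes, the core median was 0.40 and the cap median 0.24 with quantile normalization, 0.09 and 0.01 with median scaling, and -0.03 and -0.06 on the deposited scale. The other regulators were higher in H4 under each of 5 scalings, with medians of 0.47 to 0.75. PSME2 was 0.96 to 1.35 and PSMB9 2.13 to 2.56 above the median of all genes on the log2 scale over the 5 scalings.

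**Figure D4:**
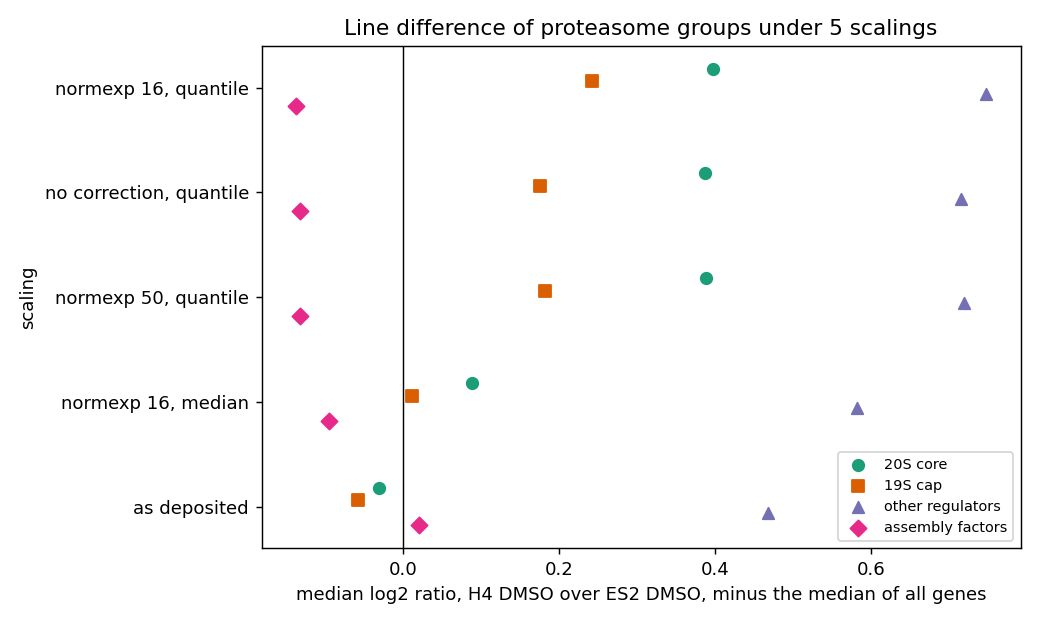
Median log2 ratio of the H4 DMSO array over the ES2 DMSO array, less the median of all genes (horizontal axis), for 4 proteasome groups under 5 scalings (vertical axis). The other regulators stay between 0.47 and 0.75, and the core, cap and assembly factor medians change sign on the deposited scale.

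PSMC3IP, the recombination factor taken by the naming rule, measured 6.73 with GANT61 against 7.29 with DMSO in H4, which is 1.48-fold lower, and 7.09 with GANT61 against 7.09 with DMSO in ES2. Its 4 probes had H4 ratios from -0.66 to -0.15, but only the probe used was detected on both H4 arrays. The probe with -0.66 was detected on 1 of them, and those with -0.41 and -0.15 on none.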

How the data were processed

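Per the labels' protocols, biotin-labelled cRNA made from total RNA was hybridized to Illumina BeadChips and read on a BeadArray Reader. The software is not given in the sources used here. The authors' deposited table gives each probe's intensity on a linear scale. Its sorted values are nearly equal on the arrays of a line, so it was taken as quantile-normalized within each line. A deposited table of signals that were not normalized also has detection p-values, named so per the file headers. Its 4 signal columns name no treatment and were not used, and the p-values served only as the number of a line's arrays, 0 to 2, that detected a probe at p under 0.01. Samples were grouped by title.

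The intensity was corrected with normexp (saddle-point, offset 16), brought to common quantiles across the 4 arrays and converted to log2, in R 4.3.3 with limma 3.58.1. Probe names were updated through RefSeq, except that members keep the file's name, and the brightest probe stood for its gene. Genes entered within a line when detected on at least 1 of its arrays, and a called ratio that rests on 1 array's detection is given with its bound. The number of arrays limits precision.

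Ratios within a line and between lines have no test. The common response was fitted with limma (lmFit, eBayes with trend, line as block, 1 residual degree of freedom, Benjamini-Hochberg). Named genes were those past the limit of 0.322 in either line, the highest and lowest of each role, those next to the limit and the 3 lowest p-values, with others named for their role after their values were seen. The members, lists and tests were chosen with earlier results of these data known. Alternatives were the background correction, its offset, the scaling, the detection limit and the choice of probe.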

Additional observations from a re-analysis of the deposited data

Results flagged for a closer look

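PSMB4, PSMD10 and MAFG passed the limit of 0.322 on the log2 scale in opposite directions in the lines, a difference that was not tested. The log2 ratio of PSMB4 was -0.51 in H4 and 0.38 in ES2, that of PSMD10 was -0.52 in H4 and 0.33 in ES2, and that of MAFG was 0.48 in H4 and -0.34 in ES2.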

How the results depend on the processing

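Counts of proteasome genes past the limit of 0.322 on the log2 scale and group medians moved little over 8 alternatives. In H4 the count of lower genes was 10 to 14 and of higher genes 2 to 4, in ES2 3 to 6 were higher and 0 lower, and each group median stayed within 0.1 of its value. The 14 and the 6 are numbers of probes, not genes. They came from the alternative that counted every probe, where a gene such as PSMD10 counted more than once. The H4 median of the other regulators was -0.02 and the ES2 cap median 0.01 over single probes. The number of genes that limma called in the shared fit was 16, 12 at a detection p under 0.05 and 0 under the other 7 alternatives, whose cause was not tested, and no proteasome gene was called in any. Between the DMSO arrays, median scaling gave 4 genes higher and 32 lower in H4, where the median of all genes itself lay at -0.62. Set against that median, 10 were higher and 10 lower, where 33.2% and 33.6% of all genes were. The authors' scale gave 10 higher. Set against its own median of all genes, it gave 10 higher and 10 lower, where 32.1% and 32.9% of all genes were. PSMD9 and MAFG in ES2 passed the limit in 4 and 3 of 7 alternatives. In H4, NFYB passed it in 3 of 7, PSME4 and UBA6 in 5, and PSMA3, AKIRIN2 and UFD1 in 6, and in ES2, TXNL1 passed in 5 and PSMD10 in 6, all with the sign kept. Low signal limits PSMA7, PSMD9 and DDI2. No paired analysis was possible because each group has 1 array, so no replicate number could be a block within a line, and the shared fit has the line as its block.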
